A study of Homo sapiens with 10 samples.

Results

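The nuclear-encoded respiratory chain genes are the genes in the cell nucleus whose protein products build the 5 enzyme complexes of the mitochondrial inner membrane. They were chosen by symbol alone, from the families that carry the names of complex I (NDUF), complex II (SDH), complex III (UQCR and CYC1), complex IV (COX) and complex V (ATP5). Symbols ending in P and digits, a form used for pseudogenes, were left out, and the coactivator gene PPARGC1A was added. The rule matched 85 of the 57955 genes in the files. Of these, 77 had at least 20 raw counts in any library, namely PPARGC1A and 76 genes counted here as subunit genes: 36 of complex I, 4 of complex II, 10 of complex III, 9 of complex IV and 17 of complex V. The other 8 genes were under 20 counts in every library and were not compared. They were NDUFA3, COX6A2, COX6B2, COX7A1, COX7B2, COX8C, ATP5J2LP and ATP5L2.

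The libraries came from 5 BRAF-mutant melanoma cell lines, each sequenced in a drug-sensitive and a drug-resistant state, as 10 mRNA libraries with 1 library per line and state. WM983A, WM278 and WM902B were established from primary tumours, and WM983B and WM1617 from metastases. The resistant lines, E+BRes, had been selected with encorafenib, a BRAF inhibitor, plus binimetinib, a MEK inhibitor, at doses raised from 1 to 200 nM within 3 to 5 months, and still grew in the final dose when harvested, whereas the sensitive lines were the original cultures without drug. All cells grew in RPMI-1640 medium with foetal bovine serum. Each resistant line is a single selected culture, and the effect of the selection and that of the drug still present in the medium cannot be told apart. WM983A and WM983B came from the same patient, as did WM278 and WM1617, so the 5 lines are not 5 unrelated tumours. P-values below measure the spread between these cultures. In bulk libraries of this kind, fewer cells expressing a gene and less RNA per cell cannot be told apart.

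The respiratory chain passes electrons from NADH, through complex I, and from succinate, through complex II, to ubiquinone, then through complex III and cytochrome c to oxygen at complex IV. The proton gradient that this builds drives ATP synthesis by complex V. PPARGC1A encodes PGC-1alpha, a coactivator that works with the nuclear respiratory factors NRF1 and GABPA and with the oestrogen-related receptors to raise the transcription of these genes, and in melanocytic cells PPARGC1A is a known target of the lineage factor MITF.

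Library totals ran from 13693922 to 18033247 counts, and the subunit genes made up 0.669% to 1.01% of each. Levels are given as CPM, counts brought to a common library total, after TMM scaling, a factor per library that sets most genes to no change. The within-line ratio is log2 of the resistant over the sensitive normalized count with 1 added. For the 76 subunit genes the counting error of a single ratio was 0.07 (SE) at the median and 0.16 at the most, whereas it reached 1.44 for PPARGC1A, and it covers counting only. The resistant WM983A library stood apart. Across all genes tested, it correlated at 0.787 with sensitive WM983A, against 0.813, 0.795 and 0.793 with sensitive WM902B, WM278 and WM983B. Each of the other 4 resistant libraries was closest to its own line (0.869 to 0.976). Across the members of the symbol rule, resistant WM983A was closest to its own line (0.846, against 0.845 for sensitive WM278). There resistant WM902B correlated at 0.923 with its own line and at 0.928 with sensitive WM983A. Because of the correlation across all genes, PPARGC1A, MITF, the counts of genes called and some other estimates are also given without WM983A. SOX10, 1 of 8 melanocyte lineage markers, held 307 to 344 CPM in the sensitive lines, but resistant WM983A, WM983B and WM902B held 6.47, 12.6 and 0.664 CPM. The sensitive lines were not alike in the other markers, and MITF was far lower in sensitive WM278 than in the other sensitive lines. SOX10 had the lowest mean ratio of the 8 melanocyte lineage markers, and the markers did not all move alike. Their median ratio was −5.95 in WM983A, −4.24 in WM983B, −7.58 in WM902B, 0.24 in WM278 and −0.16 in WM1617. MLANA was higher in resistant WM983B (2.06), and 1 marker was higher in resistant WM902B (0.96). Over the 8 melanocyte lineage markers the summed level was 429 to 4499 CPM in the sensitive and 89.7 to 4426 CPM in the resistant libraries. The summed level of 9 markers of other cell types was at most 12.2 CPM. The part of the lineage markers in the results below was not tested.

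PPARGC1A lies at chr4:23755041-23904089 (GENCODE 44, GRCh38). The RefSeq windows used here hold a proximal and a distal start for it, and the 250 bases before each are shown. They were searched for the E-box letters that MITF is known to bind. The capitals mark CATGTG, 129 bases before the proximal start, and CACGTG, 123 bases before the distal start. Both are on the minus strand in RefSeq on GRCh38.p14, and the distal start lies outside the GENCODE bounds given here.
PPARGC1A proximal start, chr4:23881102-23881351: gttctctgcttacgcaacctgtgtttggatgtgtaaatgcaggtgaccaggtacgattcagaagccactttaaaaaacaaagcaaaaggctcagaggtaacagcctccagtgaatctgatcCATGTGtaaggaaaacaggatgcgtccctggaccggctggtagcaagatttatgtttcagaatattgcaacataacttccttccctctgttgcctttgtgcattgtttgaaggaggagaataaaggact
PPARGC1A distal start, chr4:24472906-24473155: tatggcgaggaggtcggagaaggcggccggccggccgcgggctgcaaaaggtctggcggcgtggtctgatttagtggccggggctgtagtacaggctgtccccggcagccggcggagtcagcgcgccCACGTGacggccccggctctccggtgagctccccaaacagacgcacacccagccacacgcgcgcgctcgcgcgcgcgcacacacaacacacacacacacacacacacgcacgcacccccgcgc

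Promoter windows of the subunit genes, from 250 bases before to 50 after the start in RefSeq on GRCh38.p14, were listed for 60 of the 76 genes, and the letters of the factors named above were counted in them on both strands. A gene with several starts has several windows, and it was counted once if any of them held the letters. Shares for genes tested cover the 11129 of them that had a window. AAGGTCA, the half-site of the oestrogen-related receptor ESRRA, was found for 10 of the 60 genes (16.7%), against 4.8% of all 27305 genes listed and 3.79% of genes tested. CCGGAAG, bound by GABPA and other ETS factors, was found for 19 genes (31.7%), against 12.2% of all and 21.7% of genes tested. The palindrome of NRF1, spelled out in capitals in the ATP5C1 and NDUFB4 windows below, was found for 4 genes (6.67%), against 1.52% and 2.61%. With the sixth of its bases open, which takes in these 4, it was found for 14 (23.3%), against 6.98% and 13.1%. AAGATGGC of YY1 stood in 11 (18.3%), against 3.52% and 6.27%. TGACGTCA of CREB1 stood in 5 (8.33%), against 2.25% and 3.79%. The E-boxes CACGTG and CATGTG were found for 7 and 5 genes (11.7% and 8.33%), against 8.77% and 13.4% of all genes listed and 12.6% and 10.1% of genes tested. A match of letters is a description and shows no binding.

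SDHB and SDHD of complex II are shown as examples that hold letters of more than a single factor. In the SDHB window the capitals mark AAGGTCA, 224 bases before the start, and CCGGAAG, 128 before it, on the minus strand. In the SDHD window, on the plus strand, they mark the NRF1 palindrome, 110 bases before the start, and the ETS letters, 77 before it, read here from the opposite strand. The windows of ATP5C1 and NDUFB4 show the same NRF1 palindrome, which begins 22 and 159 bases before their starts, in a different setting.
SDHB, chr1:17054033-17054282: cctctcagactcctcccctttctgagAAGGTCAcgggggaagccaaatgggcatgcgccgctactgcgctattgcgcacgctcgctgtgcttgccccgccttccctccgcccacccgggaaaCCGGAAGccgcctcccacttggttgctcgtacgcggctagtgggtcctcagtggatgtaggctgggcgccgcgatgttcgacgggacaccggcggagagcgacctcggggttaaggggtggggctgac
SDHD, chr11:112086623-112086872: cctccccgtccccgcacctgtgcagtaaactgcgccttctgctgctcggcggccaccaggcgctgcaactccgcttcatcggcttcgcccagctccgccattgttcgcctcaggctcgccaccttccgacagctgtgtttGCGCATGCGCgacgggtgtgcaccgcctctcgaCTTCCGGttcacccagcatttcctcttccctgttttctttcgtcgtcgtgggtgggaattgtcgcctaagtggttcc
ATP5C1, chr10:7788135-7788176: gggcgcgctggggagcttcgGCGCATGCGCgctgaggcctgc
NDUFB4, chr3:120596157-120596206: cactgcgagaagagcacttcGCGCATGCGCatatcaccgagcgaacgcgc

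The first question was whether PPARGC1A differed between sensitive and resistant lines. In the order WM983A, WM983B, WM278, WM1617 and WM902B, kept for every list of values below, PPARGC1A held 31.2, 9.4, 3.07, 29.3 and 12 CPM in the sensitive lines, and 0.0768, 14.6, 2.36, 18.9 and 10.8 CPM in the resistant lines. The transcript was nearly gone from resistant WM983A, with 1 raw count against 474 in the sensitive library, and the levels of the other 4 resistant lines lay within the range of the sensitive ones or just under it. The WM983A level was 406-fold lower, with a 95% counting interval of 72.5 to 16067. In the other lines, in their order, the resistant level was 1.56, 0.768, 0.645 and 0.896 times the sensitive level. The means were 17 ± 12.5 and 9.35 ± 8.01 CPM (SD, n = 5 each). By edgeR's quasi-likelihood test the log2 fold change was −0.86 ± 0.98 (SE, adjusted p = 0.891), and the two-sided exact permutation test of the libraries gave p = 0.294, where the smallest possible value is 0.00794. Without WM983A the edgeR estimate was −0.21 (unadjusted p = 0.793).

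MITF, the lineage factor, held 385, 264, 10.7, 627 and 402 CPM in the sensitive lines and 34.3, 36.9, 14.5, 528 and 220 CPM in the resistant lines. The resistant level was 11.2-fold lower in WM983A, 7.15-fold lower in WM983B and 1.83-fold lower in WM902B, close to the sensitive level in WM1617 and higher in WM278. In WM983B, MITF was lower while PPARGC1A was higher. WM278 had the lowest level of both genes among the sensitive lines. The difference of MITF over the 5 lines did not pass the test (log2 fold change −1.02 ± 1.06, edgeR adjusted p = 0.877). With cell line as a block it was −1.37, with an unadjusted p of 0.076 in edgeR and of 0.0143 in DESeq2. In edgeR with no block it was −1.80 without WM1617 (unadjusted p = 0.138) and −0.71 without WM983A (unadjusted p = 0.581). In WM983A the 31 other tested genes within 5 Mb of MITF were lower as well, with a median ratio of −2.84 beside −3.49 for MITF, whereas in WM983B they had −0.55 beside −2.84.

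**Figure D1:**
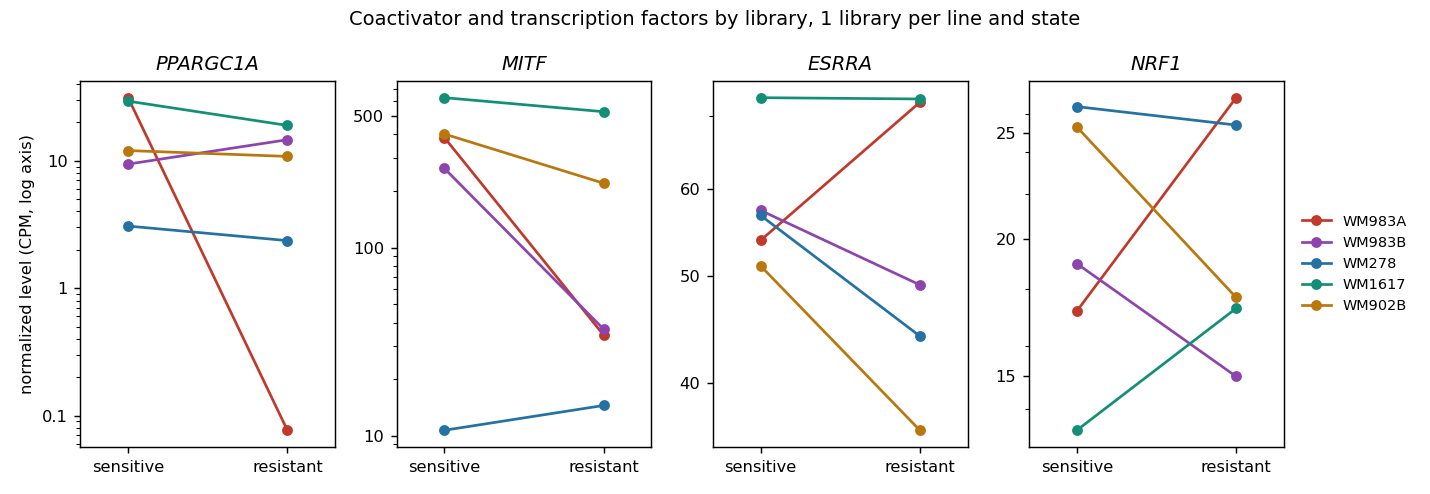
Normalized levels (CPM, log axis, a scale of its own for each gene) of PPARGC1A, MITF, ESRRA and NRF1 in the sensitive and the resistant library of each line, joined by a line per cell line, 1 library per point. PPARGC1A ends at 0.0768 CPM in resistant WM983A, and MITF at 34.3 and 36.9 CPM in resistant WM983A and WM983B, while ESRRA and NRF1 move in both directions.

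Of the 23 regulators of respiratory genes in the list used here, PPARGC1A and MITF included, 22 were tested. A single gene was past an unadjusted p of 0.05 in edgeR, against 7.14% of all 17287 genes tested, and none passed after adjustment. That gene was SIRT3, a mitochondrial deacetylase, with 10.7, 11.1, 12, 13.3 and 10.1 CPM in the sensitive and 18, 27.5, 25.2, 12.1 and 13.7 CPM in the resistant lines. It was higher in 4 of 5 lines, and WM1617 was the exception (log2 fold change 0.75 ± 0.28, edgeR adjusted p = 0.652, exact permutation p = 0.0159). Without WM983A, WM983B or WM278 its unadjusted p in edgeR was 0.0552, 0.102 or 0.0745. The 2 related coactivators gave no common direction. PPARGC1B had within-line ratios of −0.06, −0.43, 0.88, 0.30 and −0.43, and PPRC1 of 0.58, 0.25, −0.78, 0.21 and −1.02.

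The DNA-binding factors of the pathway had no common sign over the lines. ESRRA had ratios of 0.42, −0.23, −0.37, −0.00 and −0.50, NRF1 of 0.64, −0.34, −0.05, 0.37 and −0.52, and GABPA of −0.08, −1.09, −0.27, 0.34 and −0.16. ESRRG was too low to be tested, and GABPB1 lay between −0.25 and 0.18. YY1 ranged from −0.47 to 0.51 and CREB1 from −0.14 to 0.38. TFAM, which packages and transcribes mitochondrial DNA, had ratios of 0.27, −0.83, −0.84, −0.02 and −0.93, and was under the sensitive level by more than 1.5-fold in WM983B, WM278 and WM902B. Its companions in mitochondrial transcription, TFB1M and TFB2M, reached −1.30 in WM278 and −1.02 in WM902B. None of these genes passed the test.

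Among the other regulators, the lysosomal and metabolic factors TFEB and TFE3 had ratios of 1.05, 1.10, 1.05, −0.92 and 2.45, and of 0.71, 1.37, −0.16, 0.02 and 0.85. NRIP1, a corepressor of nuclear receptors, was far lower in resistant WM983A (ratio −4.58, from 121 to 4.99 CPM, beside neighbours at −2.01) and also lower in WM902B (−1.83), but not in the other 3 lines (−0.15 to 0.85). MYC ran from 1.54 in WM983A to −1.08 in WM902B. PPARA ranged from −1.34 to 1.40 and PPARD from −0.59 to 0.95. HIF1A, which lowers respiration when oxygen is short, stayed between −0.42 and 0.05, and SIRT1 between −0.46 and 0.69.

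The second question was whether the subunit genes themselves differed between the states. No subunit gene passed the test across the 5 lines. With edgeR, 0 of 76 had an unadjusted p at or under 0.05, against 7.14% of all genes tested, and 0 had an adjusted p at or under 0.05, against 0% of all genes. The smallest adjusted p among them was 0.72. DESeq2 gave 0 unadjusted (8.49% of all genes) and 0 adjusted calls (0.642%), and limma-voom 0 unadjusted calls (6.31%). In no subunit gene were the sensitive and the resistant libraries fully apart, a pattern that 0.758% of all genes had. With cell line as a block, 3 of 76 genes had an unadjusted p at or under 0.05, against 10.7% of all genes, and these 3 were all lower: NDUFB9, SDHB and ATP5F1. DESeq2 with the same block gave 3 unadjusted (14.1% of all genes) and 0 adjusted calls (3.08%). None of the 3 genes passed after adjustment (edgeR adjusted p = 0.461, 0.461 and 0.467). Over all genes tested, edgeR with the block gave 0 adjusted calls as well, whereas DESeq2 with the block gave 532. Without the block, leaving out WM983A gave 1 gene (NDUFB8, against 4.87% of all genes) and leaving out WM1617 gave 1 (NDUFS1, against 12.6%), both lower. With the block, leaving out WM983A gave 4 genes (11.7% of all genes) and WM1617 3 (15.7%), all lower. Leaving out WM983B gave 1, which was higher (NDUFA6, 4.85%), and leaving out WM278 or WM902B gave 0 (7.41% and 5.1%).

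The direction depended on the line. Over the 76 subunit genes the median ratios of the 5 lines were 0.20, −0.56, −0.05, −0.03 and −0.05, while the median over all genes tested lay between −0.01 and 0.03. In WM983B, 64 of 76 subunit genes were lower in the resistant library, against 49.7% of all genes, and 35 were lower by at least 1.5-fold, against 22.9%. None was higher by 1.5-fold there, against 26.9% of all genes. In WM983A the balance was the opposite, with 25 of 76 lower (48.8% of all genes), 27 higher by at least 1.5-fold (28.3%) and 5 lower by as much (28.6%). In the remaining 3 lines fewer members were past 1.5-fold: 5 higher and 2 lower by 1.5-fold in WM278 (21.5% and 16.6% of all genes), 2 and 2 in WM1617 (8.33% and 9.87%), and 5 and 5 in WM902B (25.5% and 23%). Of the genes tested, 10243 had a mean CPM at or above the lowest mean of a subunit gene. Their median ratios were 0.01, −0.10, −0.08, 0.02 and −0.07, and 49.7%, 55.5%, 56.7%, 47.4% and 54.1% were lower. Of these 10243 genes, 2590, 2053, 1422, 600 and 1989 were higher by 1.5-fold, and 2801, 2447, 1696, 466 and 2307 lower. With 1 library per line and state, these counts have no replicate check within a line.

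Summed over the 76 subunit genes, the sensitive libraries held 8927, 9155, 7521, 9713 and 10048 CPM and the resistant libraries 10596, 6200, 7118, 9472 and 9167 CPM. Resistant WM983B was the lowest of the 10 libraries and resistant WM983A the highest. The sensitive libraries lay between these extremes, so the states overlapped.

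**Figure D2:**
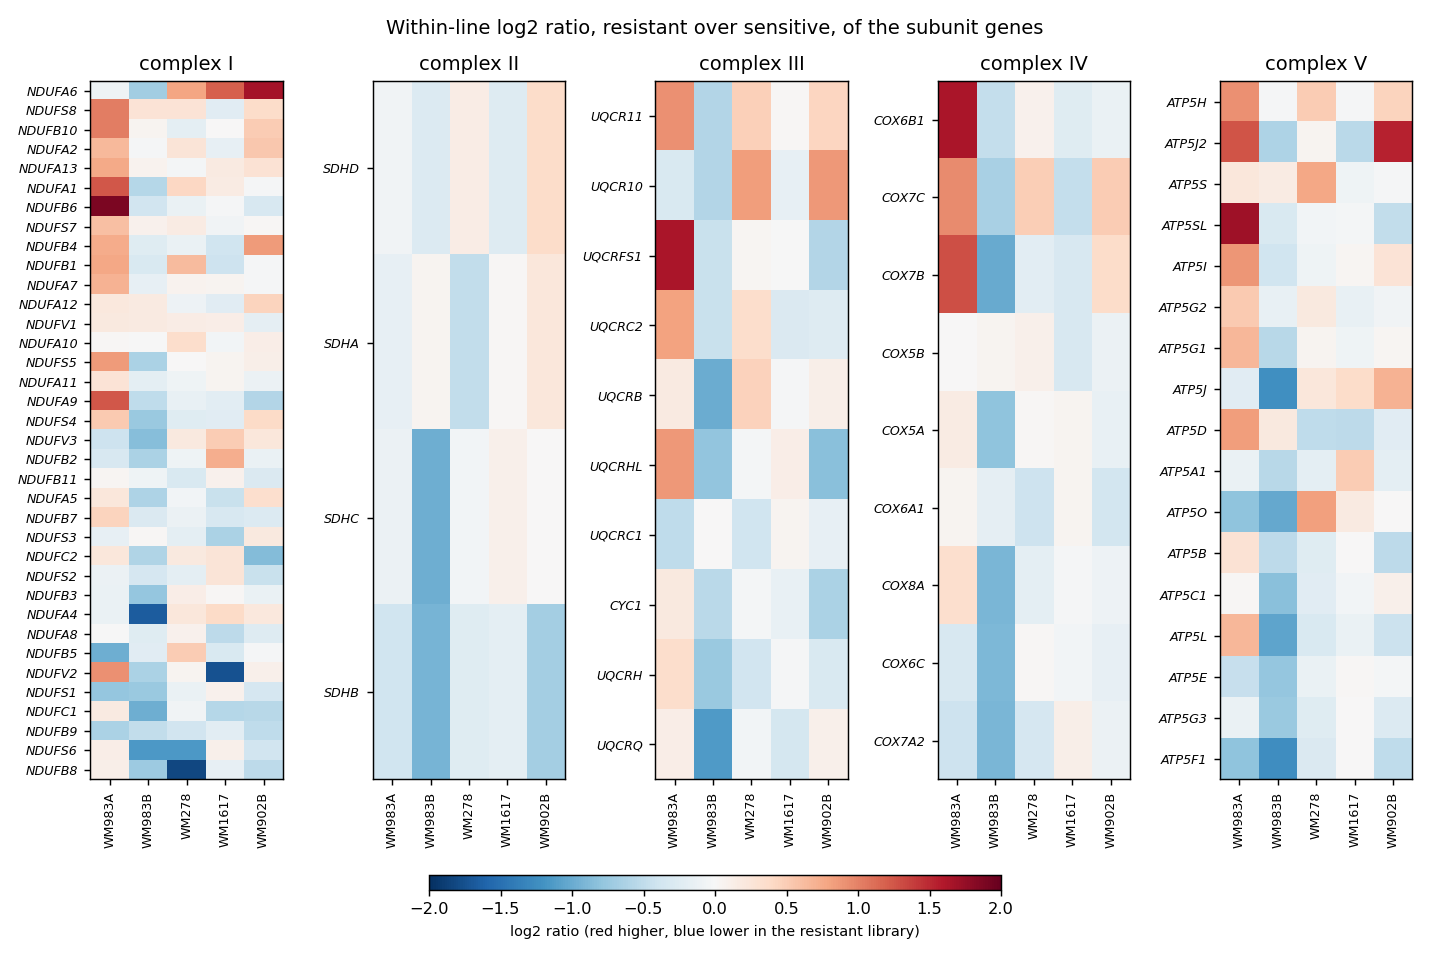
Within-line log2 ratios of the 76 subunit genes, resistant over sensitive, in a panel per complex, with genes in rows ordered by their mean ratio and the 5 lines in columns, red for higher and blue for lower. The WM983B column is mostly blue in every complex (64 of 76 genes lower, against 49.7% of all genes). The WM983A column holds most of the strong reds. There 10 genes (13.2%) were higher by at least 2-fold, a share under the 16.9% of all genes tested.

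Complex I, the NADH dehydrogenase, had a median ratio of 0.21 in WM983A, −0.36 in WM983B, and −0.05, −0.03 and −0.03 in the other 3 lines. Its length-scaled level, the mean CPM per kilobase of transcript, ran from 5.36 for NDUFA9 to 266 for NDUFB9. NDUFB8, an accessory subunit of the membrane arm, had the lowest mean ratio and the smallest p of the complex. It held 78.4, 62.9, 152, 82.1 and 73.7 CPM in the sensitive and 84.9, 38, 43, 73.3 and 51.2 CPM in the resistant lines. The sensitive WM278 library was the highest by far, the groups overlapped, and the ratio of −1.82 in WM278 carried most of the difference (log2 fold change −0.63 ± 0.31, edgeR adjusted p = 0.72). Without WM983A the estimate was −0.85 with an unadjusted p of 0.0369 and an edgeR adjusted p of 0.915, and without WM278 it was −0.26 (unadjusted p of 0.364). NDUFB8 shares its strand with an overlapping gene, and reads of the pair may be split between them.

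NDUFA6, another accessory subunit, had the highest mean ratio of complex I. Its level was 13, 15.4, 22.2, 9.64 and 9.83 CPM in the sensitive and 12.2, 9.51, 38.4, 22.3 and 31.2 CPM in the resistant lines. It was more than 1.5-fold higher in WM278, WM1617 and WM902B (ratios 0.79, 1.20 and 1.66), nearly level in WM983A (−0.09) and lower in WM983B (−0.69), and the groups overlapped (log2 fold change 0.70 ± 0.42, edgeR adjusted p = 0.77).

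NDUFB9, on chromosome 8, was lower in all 5 resistant lines. It held 217, 151, 114, 274 and 300 CPM in the sensitive and 140, 108, 88.2, 237 and 211 CPM in the resistant lines. The line-to-line spread was wider than the shift, so the groups overlapped, but the ratios were alike (−0.63, −0.49, −0.38, −0.21 and −0.51). The edgeR estimate was −0.43 ± 0.35 (adjusted p = 0.833), and −0.44 ± 0.16 with cell line as a block (unadjusted p = 0.0264, adjusted p = 0.461). The exact permutation test of the libraries gave p = 0.262.

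NDUFS1, the large iron-sulfur subunit, was the only subunit gene with an exact permutation p at or under 0.05, against 6.2% of all genes, and was chosen for description after its values were seen. It held 99.6, 127, 85.6, 86.4 and 106 CPM in the sensitive and 58.2, 75.8, 78.5, 92.2 and 83.5 CPM in the resistant lines. The 2 groups overlapped through resistant WM1617 (exact permutation p = 0.0317, edgeR log2 fold change −0.38 ± 0.19, adjusted p = 0.723). Without WM1617 the edgeR estimate was −0.50, with an unadjusted p of 0.0429.

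Some complex I genes moved strongly in a single line. NDUFB6 held 28.6, 43.9, 49.2, 49.2 and 49.6 CPM in the sensitive and 105, 33.4, 44.7, 48.6 and 39.7 CPM in the resistant lines, and thus went in WM983A from the lowest to the highest of the 10 libraries (ratio 1.88). NDUFV2, a subunit of the NADH-oxidizing module, held 44.1 CPM in sensitive and 13.2 CPM in resistant WM1617 (ratio −1.74), while its ratios in the other lines ran from −0.64 to 0.91. NDUFA4, named for complex I but now assigned to complex IV, held 389 CPM in sensitive and 123 CPM in resistant WM983B (−1.66), with ratios of −0.13 to 0.38 elsewhere. The sensitive WM983B level was the highest of the 10 libraries and the resistant WM983B level the lowest.

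Complex II, succinate dehydrogenase, is also an enzyme of the tricarboxylic acid cycle and has no mitochondrially encoded subunit. SDHB, its iron-sulfur subunit, whose promoter is printed above, lies at chr1:17018664-17054032 and held 142, 144, 74.1, 185 and 213 CPM in the sensitive and 108, 75.5, 62.9, 162 and 133 CPM in the resistant lines. It was lower in all 5 resistant lines (ratios −0.40, −0.93, −0.24, −0.19 and −0.68), with groups that overlapped because WM278 was low and WM1617 high in both states. The edgeR estimate was −0.49 ± 0.34 (adjusted p = 0.802), and −0.49 ± 0.18 with cell line as a block (unadjusted p = 0.0313, adjusted p = 0.461).

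The other 3 subunits of complex II did not share this pattern. SDHA, the flavoprotein that oxidizes succinate, held 162, 141, 161, 202 and 174 CPM in the sensitive and 143, 145, 114, 205 and 203 CPM in the resistant lines. SDHC, a membrane anchor, held 107, 160, 92.7, 103 and 141 CPM against 99.8, 81.6, 88.8, 111 and 141 CPM, so that only WM983B was past 1.5-fold (ratio −0.97). The other anchor, SDHD, ranged from −0.28 to 0.37 over the lines. The difference between SDHB and the other subunits was not tested.

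Complex III, the cytochrome bc1 complex, had median ratios of 0.27, −0.58, −0.00, −0.03 and −0.21. UQCR11, a small accessory subunit, had the highest mean ratio and the smallest p of the complex, at 46.1, 50.1, 43, 68.8 and 64.3 CPM in the sensitive and 86.7, 33.5, 59.8, 70.1 and 86.7 CPM in the resistant lines. WM983A and WM902B were the highest of the resistant libraries and WM983B the lowest of all (log2 fold change 0.31 ± 0.27, edgeR adjusted p = 0.852). Without WM983A the estimate was 0.14. UQCRQ had the lowest mean ratio, from 149 to 67.5 CPM in WM983B (−1.14) and between −0.35 and 0.13 in the other lines. UQCRFS1, the Rieske iron-sulfur protein, went from 73.5 to 228 CPM in WM983A (1.63), the highest level of the 10 libraries, and lay between −0.58 and 0.04 elsewhere. CYC1, cytochrome c1, had ratios of 0.20, −0.54, −0.04, −0.15 and −0.63.

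UQCRH, the hinge protein of complex III, is shown with its intronless copy UQCRHL because the 2 coding sequences differ at 4 of 276 bases (98.6% identity), so that reads of 75 cycles can fit both genes over most of their length. The capitals mark the differing bases. UQCRH has 4 coding exons between bases 46303767 and 46316581 of chromosome 1 and UQCRHL a single one at chr1:15807377-15807649, in GENCODE 44 on GRCh38, without the stop codon.
UQCRH: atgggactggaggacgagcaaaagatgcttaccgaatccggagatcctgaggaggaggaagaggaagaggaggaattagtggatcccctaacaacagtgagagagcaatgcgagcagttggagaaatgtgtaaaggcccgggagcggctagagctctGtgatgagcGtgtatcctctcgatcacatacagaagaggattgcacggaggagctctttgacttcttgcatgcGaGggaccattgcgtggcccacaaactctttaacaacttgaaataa
UQCRHL: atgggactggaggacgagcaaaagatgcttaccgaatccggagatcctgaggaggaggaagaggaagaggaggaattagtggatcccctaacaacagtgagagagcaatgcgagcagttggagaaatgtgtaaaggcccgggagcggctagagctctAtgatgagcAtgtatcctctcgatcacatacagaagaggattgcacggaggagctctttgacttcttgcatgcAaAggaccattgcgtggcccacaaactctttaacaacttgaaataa
UQCRH held 204, 270, 167, 288 and 333 CPM in the sensitive and 259, 160, 128, 281 and 267 CPM in the resistant lines. UQCRHL was listed at 10.2, 18.2, 10.1, 20.5 and 32.3 CPM and at 18.8, 10.5, 9.88, 22.4 and 18.1 CPM. The copy was far lower than UQCRH in every library, and how the counting shared reads between them is not given in the sources used here.

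Complex IV, cytochrome c oxidase, had the lowest median of the 5 complexes in WM983B, at −0.81 with 8 of 9 genes lower (49.7% of all genes). Its medians were 0.17, 0.02, −0.06 and −0.12 in WM983A, WM278, WM1617 and WM902B. COX7A2 had the lowest mean ratio and the smallest p of the complex, at 141, 140, 140, 100 and 141 CPM in the sensitive and 105, 73.9, 111, 108 and 131 CPM in the resistant lines. Of the sensitive libraries only WM1617 lay within the range of the resistant ones (log2 fold change −0.33 ± 0.20, edgeR adjusted p = 0.769, exact permutation p = 0.0873), and without WM983B the estimate was −0.20. COX6B1, which faces the intermembrane space, held 98.6, 87.2, 93.2, 104 and 103 CPM in the sensitive and 304, 62.3, 99.6, 88.2 and 94 CPM in the resistant lines, and only WM983A stood out (1.63). COX7B ran in opposite directions in the lines from the same patient, with 62.9 and 154 CPM in WM983A (1.29) and 103 and 51 CPM in WM983B (−1.01).

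Several complex IV subunits exist as paired isoforms, and in these lines the widely expressed form held nearly all the counts. COX6A1 lay between 69.5 and 131 CPM and COX8A between 91.4 and 216 CPM, while the muscle form COX6A2 was listed at 0 in all 10 libraries, which allows up to 3 counts per library. The testis form COX8C was at 0 in 9 libraries and at 0.019 CPM, under 1 count, in resistant WM983B. COX7A1, COX6B2 and COX7B2 stayed at or under 7, 13 and 1 raw counts in any library. COX4I1, which the symbol rule did not take in, had ratios of 0.46, −0.33, 0.52, −0.08 and −0.24. NDUFA4L2, the hypoxia-linked relative of NDUFA4, stayed at or under 2.04 CPM.

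Complex V, ATP synthase, had median ratios of 0.29, −0.56, −0.08, −0.03 and −0.04. ATP5B, the catalytic beta subunit, had the highest length-scaled level of all members, at 468 CPM per kilobase, and held 948, 929, 615, 883 and 980 CPM in the sensitive and 1162, 648, 517, 880 and 678 CPM in the resistant lines. ATP5F1, of the peripheral stalk, had the lowest mean ratio and the smallest p of the complex, at 243, 279, 147, 267 and 347 CPM in the sensitive and 139, 118, 120, 270 and 243 CPM in the resistant lines. It was lower in 4 of 5 lines and level in WM1617 (ratios −0.80, −1.24, −0.29, 0.01 and −0.51), and the groups overlapped. The edgeR estimate was −0.53 ± 0.32 (adjusted p = 0.77), and −0.56 ± 0.22 with cell line as a block (unadjusted p = 0.0413, adjusted p = 0.467). ATP5H, also of the peripheral stalk, had the highest mean ratio, with 0.92, −0.02, 0.50, −0.03 and 0.44 (edgeR adjusted p = 0.841).

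The c-ring of ATP synthase is built from identical proteins that 3 genes encode. ATP5G3 was lower in all 5 lines, though hardly in WM1617 (ratios −0.14, −0.75, −0.24, −0.00 and −0.27), and did not pass the test (log2 fold change −0.26 ± 0.26, edgeR adjusted p = 0.873). ATP5G1 ran from −0.56 in WM983B to 0.67 in WM983A, and ATP5G2 from −0.15 in WM983B and WM1617 to 0.53 in WM983A. The symbol rule also took in ATP5S and ATP5SL, which now carry the names DMAC2L and DMAC2 and are not subunits. ATP5SL went from 45.5 to 147 CPM in WM983A (1.69).

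NDUFB9, SDHB and ATP5G3 were the only subunit genes lower in all 5 lines, against 5.33% of all genes, and none was higher in all 5, against 5.74%.

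The lines from primary tumours and from metastases were compared next, since 8 of 76 subunit genes were higher in the 3 primary and lower in the 2 metastatic lines, against 2.28% of all genes, and 1 was the reverse, against 2.29%. The 8 were NDUFA2, NDUFA10, NDUFV2, UQCRB, COX7C, ATP5G1, ATP5H and ATP5J2, and the reverse was UQCRC1, a core protein of complex III. Some of their ratios were within the median counting error (SE) of 0.07. NDUFA10 had 0.02, −0.01 and −0.05 in WM983A, WM983B and WM1617, and UQCRC1 had 0.01 and 0.06 in WM983B and WM1617. COX7C, a small subunit of complex IV, held 158, 221, 111, 203 and 149 CPM in the sensitive and 304, 141, 156, 146 and 212 CPM in the resistant lines. Its ratios were 0.94, 0.49 and 0.51 in the primary and −0.65 and −0.48 in the metastatic lines. ATP5J2 had 1.26, 0.06 and 1.54 against −0.62 and −0.54, and overlaps a readthrough gene on the same strand. The test of the difference itself, an interaction of state and origin with cell line as a block, chosen after seeing the data, gave an unadjusted p at or under 0.05 for 3 of 76 genes, against 1.85% of all genes. The 3 were COX7C, ATP5J2 and NDUFV2, with an unadjusted p of 0.0177, 0.0303 and 0.0342 in edgeR, and every adjusted p was 1. The primary and metastatic lines overlap in patients, and a difference by origin and one by line cannot be told apart at this size.

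The chromosomal surroundings of the members were described because 3 of the 4 highest ratios in WM983A lay on chromosome 19. For each subunit gene the median ratio of the other tested genes within 5 Mb on either side was taken. Across the 76 members the Pearson correlation between a member's ratio and that median was 0.77, 0.41, 0.38, 0.52 and 0.18 in the 5 lines. Members that lie near each other share neighbours, so the points are not independent. The 4 highest members in WM983A lay among neighbours that were also higher: NDUFB6 (1.88) beside a median of 1.24, ATP5SL (1.69) beside 1.00, COX6B1 (1.63) beside 1.25 and UQCRFS1 (1.63) beside 1.15. Of the 76 members, 15 were under their neighbours' median in WM983A, and the median difference was 0.31 on the log2 scale. How many of all genes tested lie under their neighbours was not counted in any line, so such counts have no share beside them.

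In WM983B the neighbours' medians centred on 0.00, and 69 of 76 members were under them, with a median difference of −0.45 on the log2 scale. The same count over all genes tested was not made here either. NDUFA4, the lowest member (−1.66), lay beside neighbours at −0.19. In WM278, WM1617 and WM902B the members were under their neighbours in 44, 50 and 42 of 76 cases, with median differences of −0.04, −0.07 and −0.03. PPARGC1A in WM983A (−7.78) lay beside neighbours at 0.34, unlike MITF and NRIP1, whose neighbours were lower. Copy number was not measured here, and its part in these values was not tested.

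**Figure D3:**
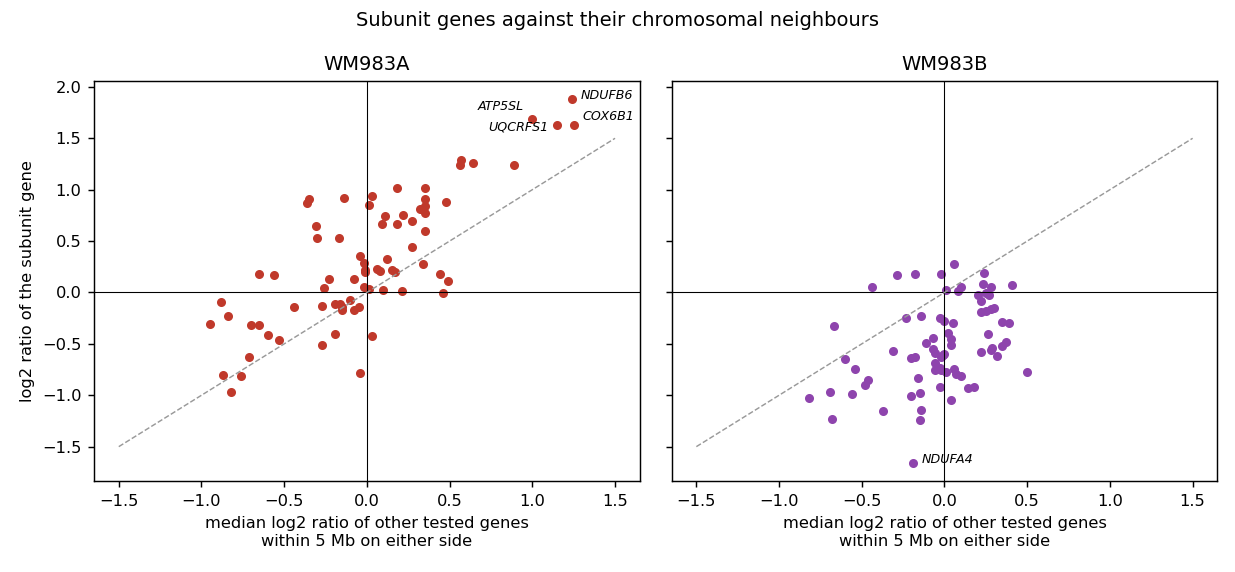
Log2 ratio of each of the 76 subunit genes (vertical axis) against the median log2 ratio of the other tested genes within 5 Mb on either side (horizontal axis), in WM983A and WM983B, 1 point per gene, with the dashed line where both are equal. In WM983A the points rise with their neighbours (r = 0.77) and 15 of 76 lie under the line, with a median difference of 0.31 above it, whereas in WM983B 69 of 76 points lie under it. The share of all genes tested under such a line was not counted.

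Other mitochondrial gene groups were set beside the subunit genes. In WM983B, where the subunit genes had a median of −0.56, the 77 proteins of the mitochondrial ribosome had −0.52 (69 of 77 lower), the 18 genes of the tricarboxylic acid cycle −0.52 (15 of 18 lower), and the 8 subunits outside the symbol rule −0.52. Of all genes tested 49.7% were lower in WM983B, and 55.5% of those at or above the lowest mean CPM of a subunit gene. The 38 assembly factors had −0.22, the cytosolic ribosome −0.31 and the 22 glycolytic genes 0.13. In WM983A the subunit genes had 0.20, the mitochondrial ribosome 0.20, the tricarboxylic acid cycle 0.01 and the cytosolic ribosome 0.89. In WM902B the mitochondrial ribosome (−0.40) and the cytosolic ribosome (−0.41) were lower at the median, while the subunit genes were near level (−0.05). In WM278 glycolysis had a median of −0.47 beside −0.05 for the subunit genes. In WM1617 these groups stayed between −0.16 and −0.01, except the subunits outside the rule (−0.18).

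**Figure D4:**
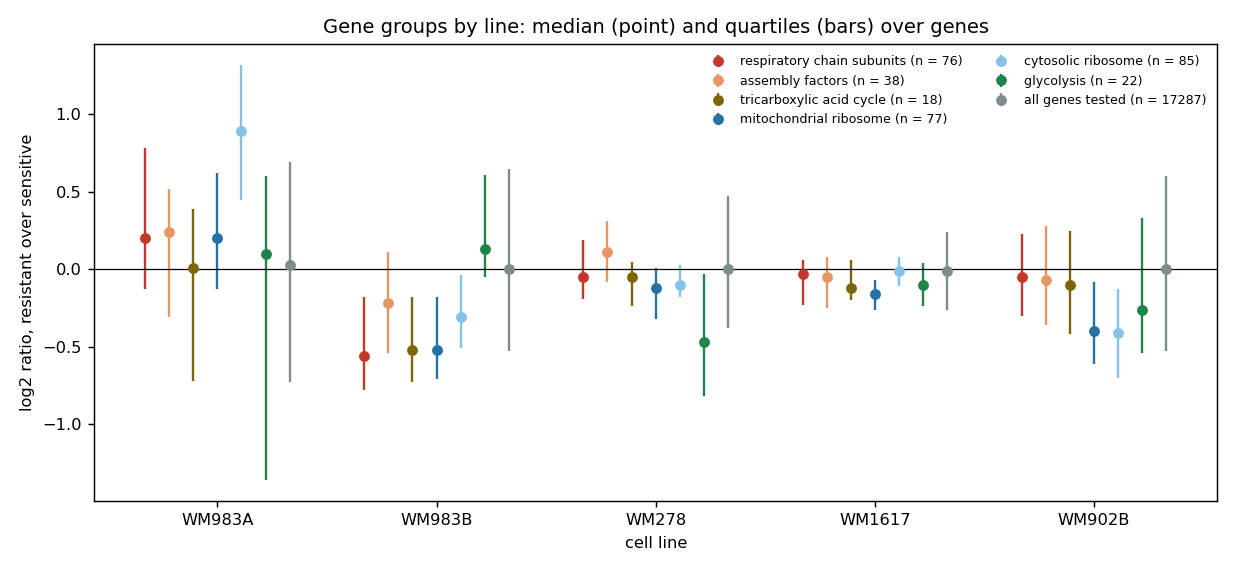
Median (point) and quartiles (bars) over genes of the within-line log2 ratio, for the 76 subunit genes, 5 other gene groups and all 17287 genes tested, in each line. The mitochondrial groups sit together under 0 in WM983B (medians of −0.56, −0.52 and −0.52 for subunits, mitochondrial ribosome and tricarboxylic acid cycle), and the cytosolic ribosome is highest in WM983A (0.89).

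Few genes of these groups were past an unadjusted p of 0.05 in edgeR (7.14% of all genes), and none passed after adjustment. Of the 77 mitochondrial ribosome genes 3 were lower and 0 higher, and 8 were lower with cell line as a block (10.7% of all genes). MRPS18A was among them (log2 fold change −0.72, unadjusted p = 0.005). Of the 38 assembly factors 1 was higher, SDHAF4, which protects the flavoprotein of complex II during assembly, with 2.07, 3.51, 3.17, 4.51 and 4.28 CPM in the sensitive and 9.62, 4.11, 8.1, 4.79 and 4.71 CPM in the resistant lines (0.84, edgeR adjusted p = 0.686). Its unadjusted p of 0.0359 became 0.0929 with cell line as a block, 0.183 without WM983A (estimate 0.49), 0.127 without WM278 and 0.0653 with no filter on low counts. Of the 10 mitochondrial antioxidant genes 2 were higher, SOD2 and GPX4, led by SOD2 in WM278 (129 to 1483 CPM). The SOD2 estimate of 2.11 was 1.08 with the block (unadjusted p of 0.078 in edgeR), 1.15 in limma-voom (0.113) and 0.62 without WM278 (0.0347). No gene of the tricarboxylic acid cycle, glycolysis, the cytosolic ribosome or the subunits outside the rule was past that p in edgeR without the block.

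Single genes of these groups moved strongly within lines. CYCS, cytochrome c, held 345, 541, 323, 428 and 335 CPM in the sensitive and 269, 223, 314, 390 and 232 CPM in the resistant lines, and was lower in all 5. IDH3A of the tricarboxylic acid cycle had ratios of −1.21, −1.53, −0.50, 0.57 and −1.03, and SUCLG2 was low in resistant WM983A alone (−4.05, beside neighbours at −3.39). COX17, a copper chaperone of complex IV, had 0.44, −1.42, −0.92, −0.31 and −1.22. UCP2, an inner membrane carrier, was higher in resistant WM983A (3.45). MRPS33 of the mitochondrial ribosome had ratios of −0.16, −0.25, 0.35, 3.21 and 0.22. None of the 13 respiratory chain genes encoded in mitochondrial DNA was found in these data under the symbols searched, so they were not analysed here.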

How the data were processed

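Libraries were made from total RNA with oligo-dT selection and sequenced single-end for 75 cycles. Per the labels and the study's methods, the authors used HISAT2 for alignment (GRCh38) and StrandNGS for quantification. Versions, annotation, strand setting and the treatment of shared reads are not given in the sources used here. The deposited raw values are expected counts (24.1% of those above 0 are whole), and the deposited normalized values, on a log2 scale, are within-line ratios and were used only to recover 455 raw values of sensitive WM983B that had been turned into dates.

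Counts were rounded, filtered with filterByExpr (17287 genes kept), TMM-normalized and tested, 5 resistant against 5 sensitive libraries, with edgeR 4.0.16 (quasi-likelihood, Benjamini-Hochberg over all genes tested, two-sided). DESeq2 1.42.0 and limma-voom 3.58.1 in R 4.3.3, the block by cell line, other scalings, pseudocounts and filters, and leaving out each line were alternatives. Python 3.11.15 (scipy 1.17.1, pandas 2.3.3, numpy 2.4.6, matplotlib 3.10.9) gave the ratios (pseudocount 1), exact permutation tests and plots. The fits were tested on simulated data.

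The block takes its pairing from the study, in which every E+BRes culture descends from its namesake. Across genes, deviations from the group means correlated within lines at −0.06 for WM983A and 0.38 to 0.67 for the other 4. Members and gene lists were chosen with earlier results of these data known. Named were PPARGC1A, per complex the genes with the highest and lowest mean ratio and the smallest p, the 10 largest single-line ratios, same-sign genes past 1.5-fold (none), complex II, CYC1, isoform sets and all regulators. The rule also took the 2 highest and 2 lowest of each other list, of which only some are described above. Genes named outside this rule were chosen after their values were seen: NDUFB9, NDUFS1, ATP5B, COX7C and the other genes split by origin, and GPX4.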

Additional observations from a re-analysis of the deposited data

Results flagged for a closer look

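In 232 groups of 5 values, the sensitive levels, resistant levels and ratios of the 77 members and the median ratio per line, 22 held a library or line far from the other 4 by Dixon's criterion at 95%. Chance alone marks about 1 in 20 such groups, and the groups share libraries. The within-line ratio of PPARGC1A in WM983A was −7.78, against −0.63 to 0.64 in the other lines. In the same line NDUFB6 (1.88, others −0.39 to −0.02), ATP5SL (1.69, others −0.49 to −0.04), COX6B1 (1.63, others −0.48 to 0.09), UQCRFS1 (1.63, others −0.58 to 0.04), NDUFA9 (1.24, others −0.59 to −0.15), NDUFA7 (0.70, others −0.16 to 0.07) and NDUFB7 (0.44, others −0.32 to −0.11) had ratios far above the rest. In WM983B the ratios of NDUFA4 (−1.66, others −0.13 to 0.38) and SDHC (−0.97, others −0.11 to 0.10) lay far below, as did NDUFV1 in WM902B (−0.18, others 0.13 to 0.20).

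Among levels, in log2 of the normalized count with 1 added, sensitive WM278 was low in UQCRQ (10.43, others 10.99 to 11.20), ATP5B (13.19, others 13.71 to 13.86), ATP5O (8.29, others 9.57 to 9.90) and NDUFB1 (8.36, others 9.02 to 9.27), sensitive WM1617 in COX7A2 (10.57, others 11.06 to 11.07), NDUFB2 (10.27, others 10.65 to 10.79) and ATP5SL (8.80, others 9.35 to 9.53), and sensitive WM983A in NDUFB6 (8.77, others 9.39 to 9.56). Sensitive WM1617 was high in ATP5S (8.99, others 7.95 to 8.20), resistant WM983A was high in ATP5SL (11.12, others 8.75 to 9.29), and resistant WM983B was low in ATP5L (8.64, others 10.77 to 10.93).

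In 9 subunit genes the sign of the ratio was the same in every primary line and opposite in every metastatic line. Some of these ratios were near 0. The metastatic minus primary difference of the log2 ratios was −1.55 for NDUFV2, −1.54 for ATP5J2, −1.21 for COX7C, −0.76 for UQCRB, −0.65 for ATP5H, −0.58 for ATP5G1, −0.57 for NDUFA2, −0.20 for NDUFA10 and 0.39 for UQCRC1. The edgeR test of this interaction gave unadjusted p-values of 0.0177 to 0.583 and an adjusted p of 1 for each.

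Counts on the 54 pseudogene symbols left out by the rule came to 0.843% of the subunit gene counts in resistant WM983A and 0.628% in resistant WM278, above the highest sensitive library (0.588%).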

How the results depend on the processing

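The count of subunit genes past an unadjusted p of 0.05, 0 in edgeR without a block, was 3 with the replicate block by cell line in edgeR and 3 with the block in DESeq2, all lower (10.7% and 14.1% of all genes). Leaving out a line gave 0 to 1 genes without the block (3.26% to 12.6% of all genes) and, as an alternative added after seeing the data, 0 to 4 with it (4.85% to 15.7%). No subunit gene had an adjusted call under any alternative run. PPARGC1A stayed lower and past no threshold in all of them (log2 fold change −1.62 to −0.21). The 55 medians per line under other scalings, pseudocounts, filters and gene sets differed from those reported by less than the spread between lines (SD 0.28), with WM983A at 0.12 to 0.31, WM983B at −0.57 to −0.48 and WM278 at −0.06 to 0.04. Of 380 ratios 88 were past 1.5-fold, 80 to 89 under other scalings and pseudocounts, and none of these changed sign. Of all genes tested, 28.3% were higher and 28.6% lower by 1.5-fold in WM983A, and 26.9% and 22.9% in WM983B. The shares were 21.5% and 16.6% in WM278, 8.33% and 9.87% in WM1617, and 25.5% and 23% in WM902B. Of 167 values of single genes under alternatives, 14 lost and 8 gained an unadjusted p of 0.05, and none reversed. SIRT3 lost it without WM983A, WM983B or WM278 (unadjusted p of 0.0552, 0.102 and 0.0745 in edgeR), SOD2 with the block in edgeR (0.078) and in limma-voom (0.113), and SDHAF4 with the block in edgeR and DESeq2 (0.0929 and 0.0721), without WM983A or WM278 (0.183 and 0.127) and with no filter (0.0653). The cause was not tested. Counting errors of single ratios were at most 0.16 in the subunit genes and 1.44 in PPARGC1A, and the number of lines limits the precision of the comparison over lines.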
